A study of Rattus norvegicus with 2 samples.

Results

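Cytosolic ribosomal protein genes were examined in the transcript annotation of the femur of rats after ovariectomy (OVX) or a sham operation (SHAM). A gene was a member when its name in the annotation, freed of the endings for predicted and mapped genes, had the form of a ribosomal protein symbol of the small subunit (Rps and a number, or Rpsa) or of the large subunit (Rpl or Rplp and a number), with the S6 kinases left out. The rule found 7 genes among the 12568 gene names of the annotation, and these 7 genes had 12 of its 43391 transcript models. Described by name are Rps15 of the small subunit and Rpl3, Rpl11, Rpl36a, Rpl39 and Rpl41 of the large subunit, while counts cover all 7 genes.

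The RNA came from femurs of female Wistar rats of wild-type genotype, which had both ovaries removed or were operated on in the same way with the ovaries left in place, without a further agent. The labels name 1 OVX rat and 1 SHAM rat, both at week 16, and also call the former old and the latter young; the methods of the study describe more rats in each group and a feeding period of another length. The files analysed here give positions of models and hold no read count, level or coverage for either rat. The depth is therefore unknown, the markers of bone cells could not be checked by level, and no OVX against SHAM value exists for any ribosomal protein gene in what follows. A model is recorded as found in 1 or in both of 2 assemblies, with no record of the rats behind the first or the second assembly.

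The ribosome is built from a small subunit, which holds the mRNA and reads its codons, and a large subunit, which joins amino acids and guides the growing chain outwards. Each ribosomal protein is needed in step with the others, so these genes are active in nearly every cell, and loss of a single copy of several of them causes Diamond-Blackfan anaemia, in which malformations of the skeleton occur beside the failure of red cell formation. In mammals most of these genes have introns, begin with a short first exon and start transcription within a run of pyrimidines, the 5′ terminal oligopyrimidine tract, while their mRNAs have also been copied back into the genome many times as intronless pseudogenes.

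The start regions of 5 members are shown because the models of these genes differed at the 5′ end or in the assemblies that held them. The RefSeq table of GRCr8 held, by symbol, a window for 6 of the 7 members. Capitals mark the longest run of C and T that reaches to within 25 bases of the annotated start on either side, and, where present, the letters ATGGT after the start, which join the letters of a start codon to those that open an intron. Each line begins 60 bases before the annotated start, on the strand of the gene.
Rps15 (chr7:10068086-10068175, minus strand, GRCr8): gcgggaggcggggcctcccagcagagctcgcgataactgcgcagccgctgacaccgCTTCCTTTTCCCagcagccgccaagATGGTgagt
Rpl3 (chr7:113507959-113508050, minus strand, GRCr8): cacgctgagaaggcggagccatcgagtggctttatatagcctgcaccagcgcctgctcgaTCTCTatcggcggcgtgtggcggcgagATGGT
Rpl11 (chr5:153560773-153560862, minus strand, GRCr8): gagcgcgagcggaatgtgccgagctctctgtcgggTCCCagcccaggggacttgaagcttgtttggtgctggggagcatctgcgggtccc
Rpl39 (chrX:121195867-121195956, minus strand, GRCr8): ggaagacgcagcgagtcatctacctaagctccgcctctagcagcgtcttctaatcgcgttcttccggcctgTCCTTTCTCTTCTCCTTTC
Rpl41 (chr7:1563468-1563557, minus strand, GRCr8): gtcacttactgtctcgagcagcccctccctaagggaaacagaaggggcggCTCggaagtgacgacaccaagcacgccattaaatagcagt

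The run of C and T was 23 bases long at Rpl39, of which the last 4 lie beyond the printed end. At Rpl39 the whole run lay downstream of the annotated start, from 11 bases on, and did not include it. The run was 12 bases long at Rps15, where it crossed the annotated start. Over all 33469 windows of the table, 0.469% held a run as long as that of Rpl39 and 5.99% one as long as that of Rps15. In the other start regions shown, no long run reached to within 25 bases of the start. The longest had 5 bases at Rpl3, 4 bases at Rpl11 and 3 bases at Rpl41, against a median of 5 bases over all windows. Longer runs further upstream, as in the lines of Rpl11 and Rpl41, were not counted. The median was 11 bases over the 65 windows of the list of 80 cytosolic ribosomal proteins. The letters ATGGT began at base 28 after the start of Rpl3 and at base 22 after that of Rps15, and they were not found after the start of Rpl11, Rpl39 or Rpl41. Counted on either strand, they stood in the 50 bases after the start in 2 of the 6 member windows, in 24.6% of the windows of the listed ribosomal proteins and in 7.26% of all windows. A match of letters describes the window and is not a mapped site.

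All 7 member genes had introns in every model. None of the 12 models had a single exon (0%, exact 95% interval 0 to 26.5%), against 2.98% of the 38602 models of the other named genes. None of the 7 loci held single-exon models only (0%, 0 to 41%), against 835 of the 12561 other named genes (6.65%). The members shared this with both comparison families, in which 0 of 55 mitochondrial ribosomal protein genes and 0 of 31 proteasome subunit genes had single-exon models only. Both shares of the other named genes lie within the wide intervals of the members. No intronless copy thus stood under a member name, and the rule could not find copies that the annotation gives other names. Each name stood on 1 locus, no antisense, intronic or retained-intron class was assigned to a member, and no new gene lay within 5 kb of one. Intervals here and below cover counting only, since models are not replicates of a condition.

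In the small subunit, Rps15 differed between assemblies. Positions of models are printed as the files give them; the processing notes name the build rn4, but whether the positions are on it is uncertain. Rps15, whose tail reaches towards the decoding site, had 2 models on chromosome 7 (XLOC_007741, 7592780 to 7594246, minus strand). The model of the second assembly had 4 exons and 519 bp and matched all introns of a reference transcript in order (a full chain). The model of the first assembly had 3 exons and 467 bp and was contained in the same reference transcript. It shared the last 2 of the 3 introns and lacked the first exon, which had 42 bp. The window printed above for Rps15 shows the letters ATGGT close behind the start of this gene.

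In the large subunit, Rpl3 and Rpl11 had the most exons and showed the same kind of difference between assemblies. Rpl3, a core protein next to the site where peptide bonds form, lay on chromosome 7 (XLOC_008051, 107950536 to 107955930, minus strand). Its model in the first assembly had 10 exons and 1307 bp and matched the full reference chain. Its model in the second assembly had 9 exons and 1217 bp, shared 8 of the 9 introns and lacked the first exon of 36 bp. At the 3′ end the contained model was 55 bp shorter. Only 37 of the 5113 spliced full-chain models of other named genes (0.724%) had a shorter first exon than Rpl3, and 62 of them (1.21%) had a shorter one than Rps15.

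Rpl11 forms a particle with 5S rRNA and can hold back Mdm2, the ligase that removes p53. It had 3 models, the most of any member, on chromosome 5 (XLOC_006289, 146678952 to 146682663, minus strand). The first assembly held a model of 6 exons and 653 bp and a model of 2 exons and 2956 bp, and both matched a full chain of their own reference transcript. The second exon of the latter, 2874 bp long, spanned 4 of the 5 introns of the former. A full chain compares introns only. The match therefore shows that the reference transcript shares the only intron of this model, and not how far its exons reach. The second assembly held a contained model of 5 exons and 687 bp, which lacked the first exon of 82 bp and reached 115 bp further at the 3′ end than the model with 6 exons.

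**Figure D1:**
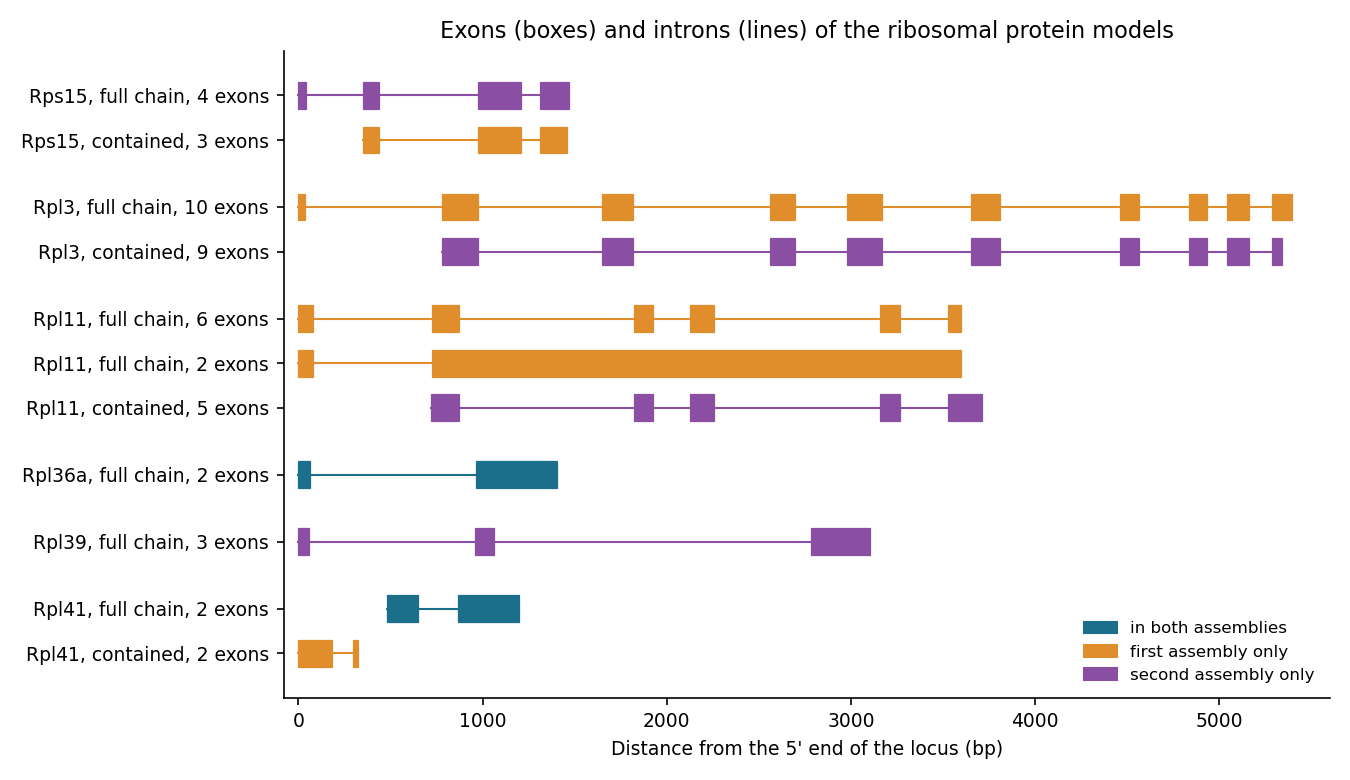
Exons (boxes) and introns (lines) of the models of 6 ribosomal protein genes, by distance in bp from the 5′ end of each locus, with colour for the assembly that held the model. In Rps15, Rpl3 and Rpl11 the contained model begins 1 bp before the second exon of the full-chain model and has the other assembly's colour.

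Rps15, Rpl3 and Rpl11 thus had a full chain in 1 assembly and, in the other, a model without the first exon alone. The contained model began exactly 1 bp before the second exon of the full-chain model in all 3 genes. The full chain was in the first assembly for Rpl3 and Rpl11 and in the second for Rps15. The same comparison, chosen after these values were seen, was possible for 848 other named genes with a spliced full chain in 1 assembly only and a contained model of the same reference transcript in the other. Of these, 370 contained models (43.6%) lacked introns at the 5′ end only, 347 (40.9%) at the 3′ end only and 131 (15.4%) at both ends. The first intron alone was missing in 122 (14.4%). It was missing in 33 of the 130 genes (25.4%) whose first exon was under 100 bp and in 89 of the 718 others (12.4%). A start exactly 1 bp before the matching exon was found in 32 of the 370 models that lacked 5′ introns only (8.65%), and 272 (73.5%) began inside that exon. With 3 member genes no difference from these shares was tested.

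The other large-subunit members were short genes with few exons. Rpl39, a small protein of the exit tunnel, was the only member with models in 1 assembly alone. Its model, in the second assembly, had 3 exons and 484 bp and matched the full reference chain (XLOC_016653, chromosome X, 115554444 to 115557547, minus strand). Since the files give no depth, a missing model in the first assembly is not a measure of the level of Rpl39.

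Rpl41, a very short basic peptide that lies between the subunits, had 2 models on chromosome 7 (XLOC_007696, 848459 to 849655, minus strand). The full-chain model of 2 exons and 497 bp was found in both assemblies. The contained model of 2 exons and 210 bp was found in the first assembly, belonged to a different reference transcript and lay 158 bp upstream without overlap.

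The name Rpl36a went against the current annotation. Rpl36a, a protein near the exit site for tRNA, has a close relative, Rpl36al1, with a gene of its own. The locus named Rpl36a (XLOC_006977, chromosome 6, 86154031 to 86155432, minus strand) had 1 model of 2 exons and 502 bp, which matched the full reference chain and was in both assemblies. It lay 122 bp from Mgat2, which is the gene next to Rpl36al1 in the GRCr8 table. The same table lists Rpl36a on chromosome X between Btk and Gla. In the annotation the 7902 bp between Btk and Gla held 1 locus, under an rCG name, and none named Rpl36a. The 2 start regions are printed because they tell the gene named and the gene beside Mgat2 apart; capitals again mark the longest run of C and T that reaches to within 25 bases of the start.
Rpl36a (chrX:102059389-102059478, plus strand, GRCr8): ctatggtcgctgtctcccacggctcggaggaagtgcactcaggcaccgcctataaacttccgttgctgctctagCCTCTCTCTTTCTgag
Rpl36al1 (chr6:93392229-93392318, minus strand, GRCr8): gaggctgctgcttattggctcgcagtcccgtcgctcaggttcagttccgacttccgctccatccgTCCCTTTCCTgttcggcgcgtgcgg
The run had 13 bases at Rpl36a and 10 bases at Rpl36al1, and at both genes it lay wholly after the annotated start. With no genome of the build of the files at hand, neither sequence was compared with the model, and the locus is called by the name the annotation gives it. Rpl3, Rpl11, Rpl39, Rpl41 and Rps15 each lay between the nearest genes of the GRCr8 table that the annotation names. For Rpl3 and Rps15 these were the adjacent genes of that table on both sides. For Rpl11, Rpl39 and Rpl41 the one on 1 side was only gene number 3, 4 and 8 from the member.

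Across the members, full reference chains were frequent and new junctions were not found. Of the 12 models, 8 matched a full chain (66.7%, exact 95% interval 34.9 to 90.1%) and 4 were contained (33.3%). The share with a full chain was 15.4% in the other named genes, 35.6% in 118 models of mitochondrial ribosomal proteins and 40.3% in 72 models of proteasome subunits. All 7 member genes had at least 1 full chain (100%, 59 to 100%), against 38.5% of the other named genes, 56.4% of the 55 mitochondrial ribosomal protein genes and 83.9% of the 31 proteasome genes. Models with a new junction made up 0 of 12 (0%, 0 to 26.5%), 25.6%, 15.3% and 9.72% in the same order. The intervals of the members are wide, and that for models with a full chain includes the shares of both comparison families.

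**Figure D2:**
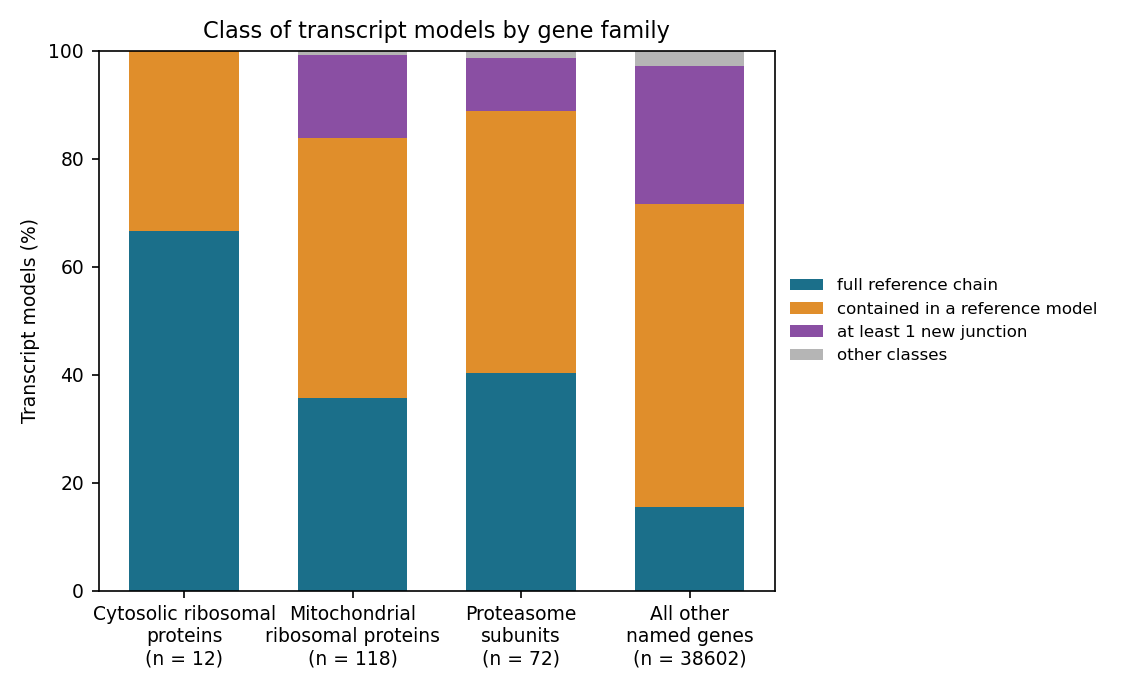
Share of transcript models (%) in each class for cytosolic ribosomal proteins, mitochondrial ribosomal proteins, proteasome subunits and all other named genes, with the number of models under each bar. The full-chain share is 66.7%, 35.6%, 40.3% and 15.4% from left to right, and the first bar rests on 12 models.

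Of the 12 member models, 3 were found in both assemblies (25%, exact 95% interval 5.49 to 57.2%), among them the full-chain models of Rpl36a and Rpl41. A further 5 were in the first assembly only and 4 in the second only. The share in both was 12.2% for the other named genes, 18.6% for mitochondrial ribosomal proteins and 33.3% for proteasome subunits, all within the interval of the members. Among full-chain models alone, 3 of 8 member models (37.5%) were in both, against 50.3% in the other named genes, 40.5% in mitochondrial ribosomal proteins and 62.1% in proteasome subunits. By gene, 3 of 7 members (42.9%) had a model that both assemblies shared, against 30.8%, 34.5% and 61.3% in the same order. Counting also genes with a different model in each assembly, as in Rps15, Rpl3 and Rpl11, the share was 6 of 7 (85.7%), against 76.5%, 81.8% and 96.8%, so the proteasome subunits were above the members on each of these shares.

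Full-chain models of the members were short, while the median length over models of all classes was close to that of the other named genes. The median number of models per gene was 2, as in the other named genes, and the median of the largest exon number was 4 against 5, or 5 in both without Rpl36a. Full-chain models had a median exon length of 586 bp in the members, 1006 bp in mitochondrial ribosomal proteins, 1327 bp in proteasome subunits and 1491 bp in the other named genes. Over models of all classes the median was 586 bp in the members, 602 bp in mitochondrial ribosomal proteins, 846 bp in proteasome subunits and 592 bp in the other named genes. The first exon of the spliced full-chain models had a median of 73.5 bp in the members and ranged from 36 bp in Rpl3 to 168 bp in Rpl41, against medians of 178, 208 and 204 bp in the same order. In the same spliced full-chain models, introns added up to a median of 1784 bp in the members, 2860 bp in mitochondrial ribosomal proteins, 6340 bp in proteasome subunits and 6160 bp in the other named genes. All 7 members lay on the minus strand, as did 50.2% of the other named genes, and 3 of them lay on chromosome 7.

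**Figure D3:**
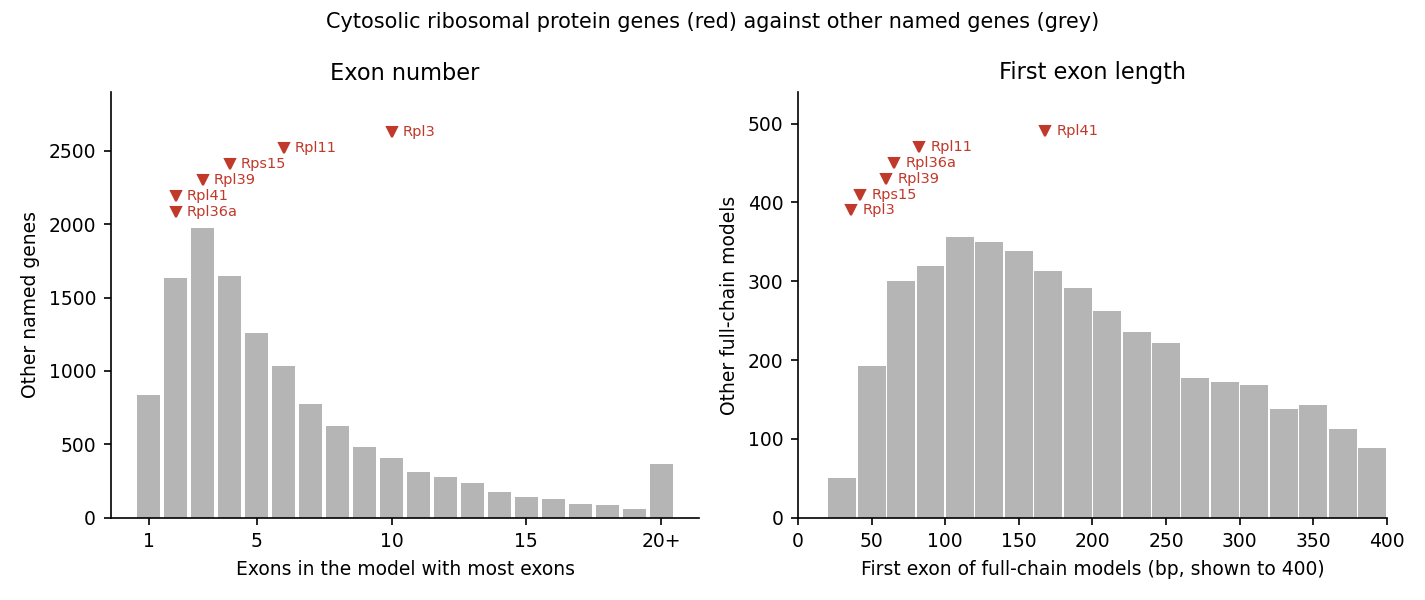
Left, number of other named genes (grey bars) by the exon number of the model with most exons, with 20 or more exons in 1 bar. Right, number of other spliced full-chain models by first exon length (bp, in steps of 20 bp, up to 400 bp). Red markers give 6 ribosomal protein genes at their own value on the x axis, at heights without meaning; Rpl3 (36 bp) and Rps15 (42 bp) have the shortest first exons of those shown.

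The members were a small part of the cytosolic ribosomal proteins. Of a list of 80 canonical genes, 77 have a symbol that the rule could find, and 70 of these 77 were not found by it. Examples are Rpl10 and Rpl10a, and the stalk proteins Rplp0, Rplp1 and Rplp2, the laminin-receptor-like protein Rpsa and the ubiquitin fusion gene Rps27a were likewise not found. No name with the ending l or l1 met the rule. The rule could not find a name such as Rpl36al1, which has more letters after its number than the rule allows. Whether the locus named Rpl36a is that of its relative Rpl36al1 was not settled here. In all, 7 of the 77 symbols (9.09%) stood as a name in the annotation, against 55 of 78 symbols (70.5%) of mitochondrial ribosomal proteins, 31 of 48 (64.6%) of proteasome subunits and 5336 of 20978 protein-coding symbols (25.4%), a set that is not limited to genes expressed in the femur.

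**Figure D4:**
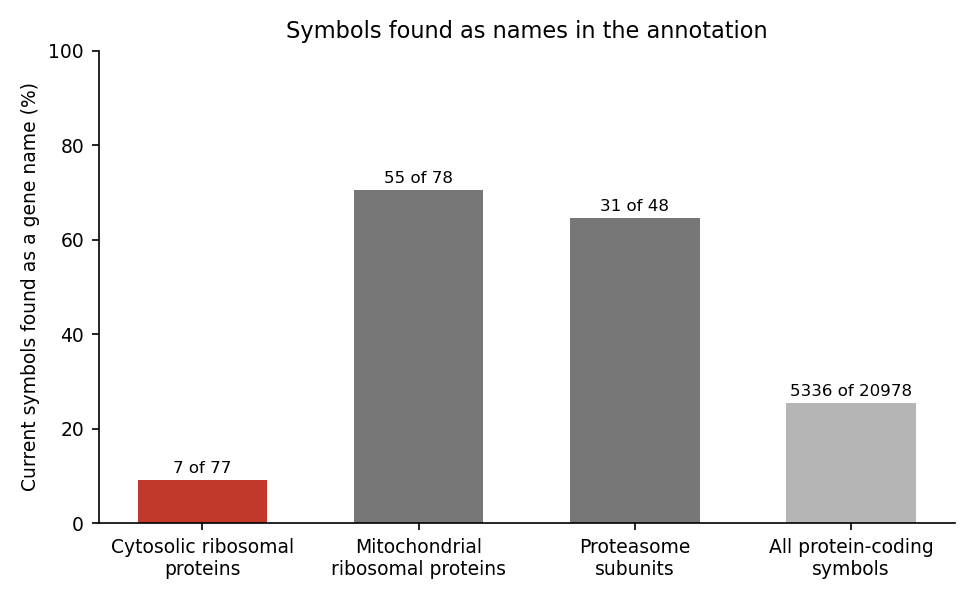
Share (%) of the current symbols of each gene family that stood as a gene name in the annotation, with the counts above the bars. Cytosolic ribosomal proteins have the lowest share, 7 of 77, and the mitochondrial ribosomal proteins the highest, 55 of 78.

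Loci under other names lay between the neighbours of most listed genes that were not found by name. Of the 12568 gene names, 4469 (35.6%) begin with rCG and a number and match no current symbol. For 52 of the 70 listed genes that the rule covers and that were not found by name, the nearest named genes on both sides in the GRCr8 table also lay within 1 Mb of each other in the annotation. The interval between them held at least 1 locus with an rCG name for 50 of the 52 genes (96.2%, exact 95% interval 86.8 to 99.5%), and for 11 genes that was the only locus inside. Of 15570 other protein-coding symbols not found by name, 8396 had neighbours that met the same condition. Of these 8396, 67.2% had such a locus in the interval, although their intervals were longer, with a median of 231 kb against 146 kb. These other symbols, too, are not limited to genes expressed in the femur. The 2 genes without any locus in the interval were Rpl29 and Rpl35a, named here after their values were seen. A locus in such an interval was not identified with the listed gene, because several genes can share an interval, so none was given a name or counted as a member. The values above therefore describe the loci that the annotation gives a ribosomal protein name, with that of Rpl36a in doubt, and not the family in the femur.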

How the data were processed

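Total RNA from the femur was made into libraries with a SMARTER mRNA kit and, per the methods of the study, sequenced by a company. The submitters' processing notes name FastQC, HISAT2, StringTie and featureCounts without versions and the build rn4. The deposited files hold other values than expression: start and end positions of transcript models and of new genes, with a class code against a reference annotation and the number of assemblies per model, per the file headers and attributes. The files themselves name no build, and their sequence names and rCG gene names may belong to another rat assembly than rn4. This was not checked, because no genome of the build of the files was at hand, so the build of the printed positions is uncertain. They are given as in the files, 1-based.

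Models were joined by gene name. A full chain is class =, a contained model class c and a new junction class j. The assembly of a model was read from the numbering, which on each of the 21 sequences passes through both strands and then starts again. Sequences were assigned to chromosomes by the GRCr8 symbols on them. GRCr8 was used for names, neighbours (up to 10 protein-coding genes on each side) and the start windows with their own coordinates. The comparison families were names with Mrpl or Mrps and a number and with Psma to Psmg and a number. The labels give 1 OVX and 1 SHAM sample and no column holds a sample, so no test was run. Shares have exact binomial (Clopper-Pearson) 95% intervals.

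Named in the text are, by rule, members without a full chain, with single-exon models only, in 1 assembly only, the 5 with the most models and the 5 with the most exons (ties by name), those on several loci or with antisense, intronic or retained-intron classes, paralogs, Rpsa, the stalk proteins, Rps27a and the first listed genes not found. Results for 1 of the 7 members are not reported here by name. The members and lists were chosen with earlier results of these data known. The reading of the files was tested on simulated data. Alternatives were the listed genes only, names as written, no contained models, models of at least 300 bp, loci by name, the main locus of each name and, added after seeing the data, Rpl36a left out. Python 3.11.15, numpy 2.4.6, scipy 1.17.1 and matplotlib 3.10.9 were used.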

Additional observations from a re-analysis of the deposited data

How the results depend on the processing

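Of 33 recomputed values, 25 were identical to the main value and 32 stayed within the interval, spread or range used to judge them. The share of member models with a full reference chain was 100% when contained models were left out, by construction. It was 63.6% without Rpl36a, an alternative chosen after seeing the data, where the share of models in both assemblies was 18.2% and the median of the largest exon number 5. The listed genes only, names as written, loci by name and the main locus of each name removed no model, so they say nothing on stability. No paired analysis was possible because no column holds a sample. Depth is unknown, and 12 models give wide intervals.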
